A study of Mus musculus with 79 samples.

Results

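Neuronal pentraxins are secreted or membrane-bound relatives of the blood pentraxins that gather glutamate receptors of the AMPA type at excitatory synapses. Nptx1 and Nptx2 (also called NARP) encode the secreted members, and Nptxr encodes the neuronal pentraxin receptor, a transmembrane member that forms complexes with both. Proteases can shed the receptor from the membrane. Nptx2 is an immediate-early gene of synaptic activity, and its protein, released by excitatory axons, is known for recruiting AMPA receptors to the excitatory inputs of parvalbumin interneurons. The data below give the level of the 3 transcripts, out of 38879 genes in the deposited table, in 4 neuron types of the mouse medial prefrontal cortex and with and without chronic stress.

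The 3 genes were chosen by their names, and they were proposed with results of these data known, among them the high level of Nptxr in pyramidal neurons of control mice. The differences between neuron types in control mice are therefore given as a description with no test, and the types were tested in the stressed mice. The study used 20 male C57Bl/6J mice. The 10 control mice were housed in groups with littermates, and the other 10 went through unpredictable chronic mild stress (UCMS), 5 weeks of varied stressors such as restraint, wet bedding and predator odour, and lived alone, so that stress and housing cannot be told apart. Tests of anxiety-like and depressive-like behaviour were run in the last weeks. Pyramidal (PYR), parvalbumin (PV), somatostatin (SST) and vasoactive intestinal peptide (VIP) neurons were marked with RNAscope probes in 12 µm sections and cut out by laser, 130 cells per library. There were 79 libraries, 10 for each type and arm except PV neurons of UCMS mice, which had 9. Libraries held 3642579 to 13529571 reads.

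Nptx1 (ENSMUSG00000025582) lies on chromosome 11 from 119538719 to 119547753, on the minus strand of GRCm38, with 5217 bases of exon in 5 stretches. Nptx2 (ENSMUSG00000059991) lies on chromosome 5 from 144545902 to 144557478, on the plus strand, with 2536 bases of exon in 5 stretches. Nptxr (ENSMUSG00000022421) lies on chromosome 15 from 79786351 to 79804766, on the minus strand, with 5170 bases of exon in 6 stretches. Nptx1 and Nptx2 overlap no other annotated gene. Nptxr shares 890 of its exon bases, or 17.2%, with Npcd, a gene annotated on the same strand that joins Nptxr to its neighbour Cbx6, so reads from those bases cannot be told apart between them. Npcd is not among the genes of the deposited table, and how reads from those bases were assigned is not known.

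All 3 transcripts had their highest mean in PYR neurons, and Nptxr was the most abundant of them in every type. Values are normalized counts, that is, reads scaled by 1 size factor per library. Nptxr reached 8721 ± 1201 in control PYR neurons (SD, n = 10), with a lowest library of 6821, a median of 8668 and a highest library of 10956. In control VIP neurons it was 5296 ± 1315 (n = 10, 2743 to 7090, median 5180), in SST neurons 2890 ± 486 (n = 10, 2205 to 3749, median 2977) and in PV neurons 1871 ± 498 (n = 10, 1087 to 2610, median 1960). The PYR range lay above the ranges of SST and PV neurons and overlapped that of VIP neurons, although all 10 control mice had more Nptxr in their PYR than in their VIP library. The mean in PYR neurons was 4.66 times that in PV, 3.02 times that in SST and 1.65 times that in VIP neurons.

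The stressed mice showed the same order for Nptxr, with 9768 ± 1617 in PYR (n = 10, 6706 to 12067, median 10091), 5968 ± 990 in VIP (n = 10, 4558 to 7454, median 5914), 3301 ± 749 in SST (n = 10, 2125 to 4608, median 3083) and 2145 ± 627 in PV neurons (n = 9, 1157 to 3209, median 1840). Here too the PYR range lay above those of SST and PV neurons and overlapped that of VIP neurons. Ratios of means were 4.55 for PYR to PV, 2.96 for PYR to SST and 1.64 for PYR to VIP neurons.

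Nptx1 had the same order of types in both arms. In control mice it was 2557 ± 747 in PYR (n = 10, 1517 to 3963, median 2373), 1211 ± 426 in VIP (n = 10, 509 to 1996, median 1158), 736 ± 207 in SST (n = 10, 331 to 978, median 762) and 523 ± 247 in PV neurons (n = 10, 144 to 843, median 569). The control SST and PV ranges overlapped over most of their length, and 8 of 10 mice had more Nptx1 in the SST library. In UCMS mice Nptx1 was 2252 ± 343 in PYR (n = 10, 1745 to 2655, median 2245), 1444 ± 319 in VIP (n = 10, 986 to 2045, median 1391), 978 ± 506 in SST (n = 10, 380 to 1867, median 840) and 737 ± 218 in PV neurons (n = 9, 371 to 976, median 739). The SST libraries of UCMS mice were the most uneven for this gene, and the highest of them exceeded the lowest PYR library.

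Nptx2 was the least abundant member and the most variable. Control PYR libraries held 324 ± 127 (n = 10, 81.1 to 511, median 331) and UCMS PYR libraries 320 ± 92.7 (n = 10, 98.2 to 424, median 331). PV neurons had the lowest level, 24.7 ± 23.2 in control (n = 10, 0 to 63.4, median 28.1) and 47.4 ± 57.2 in UCMS mice (n = 9, 0 to 154, median 19.9). SST libraries held 113 ± 102 in control (n = 10, 0 to 303, median 125) and 168 ± 153 in UCMS mice (n = 10, 0 to 437, median 140). VIP libraries held 220 ± 292 in control (n = 10, 0 to 983, median 144) and 166 ± 130 in UCMS mice (n = 10, 30.0 to 479, median 136). Without the control VIP library of mouse U10, which alone held 983, the control VIP mean was 135 ± 123 (n = 9).

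Nptx2 gave at least some reads in all 20 PYR libraries, the lowest holding 96 reads. No read was found in 3 of 10 control PV libraries, 1 of 9 UCMS PV libraries, 1 of 10 SST libraries in each arm and 1 of 10 control VIP libraries. A count of 0 allows up to 3 reads, which is 2.37 to 3.70 normalized counts in these 7 libraries, for counting error only. In interneurons the spread between libraries of a group was of the size of the mean, with coefficients of variation of 78.4% to 133%, against 29.0% and 39.1% in PYR neurons. The order of SST and VIP neurons differed between the arms, and 5 of 10 mice had the higher value in SST neurons in each arm.

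**Figure D1:**
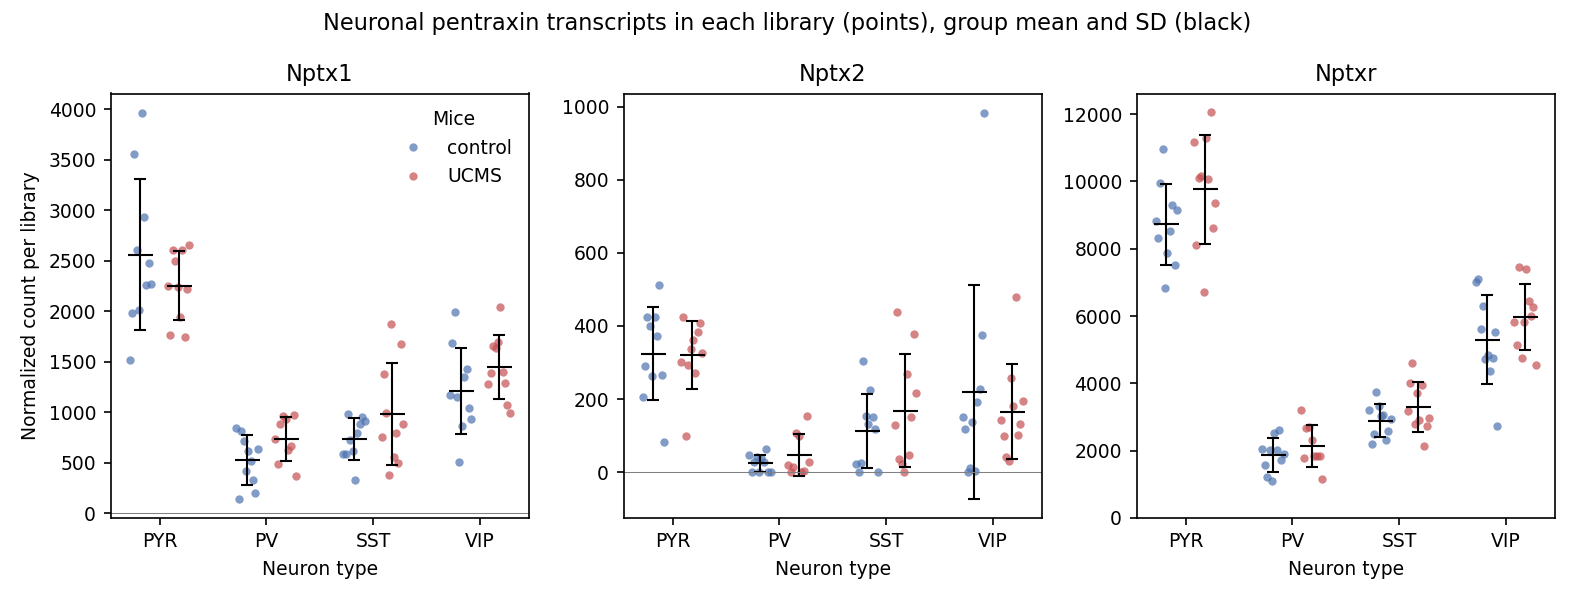
Normalized count of each member (vertical axes, linear, 1 scale per gene) in every library, by neuron type and arm. Points are libraries of control (blue) and UCMS mice (red), and black bars are the group mean and SD. Group means are highest in PYR neurons for all 3 genes, and the arms overlap in every type. For Nptx2, 1 control VIP library stands at 983, above every PYR library. In UCMS mice a VIP library at 479 and an SST library at 437 exceed the highest PYR library of that arm, at 424.

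Per kilobase of annotated exon, Nptxr made up most of the 3 transcripts in every group. This scale compares different genes only as far as reads covered their annotated exons evenly, which was not tested. In control PYR neurons Nptxr had 1687 ± 232 normalized counts per kilobase, Nptx1 490 ± 143 and Nptx2 128 ± 49.96 (SD, n = 10). Nptxr took 72.3% to 77.1% of the sum over the 3 genes as a mean per library in the 8 groups. The share of Nptx1 lay between 17.1% and 24.6%. Nptx2 had the smallest share in all 8 groups, from 1.79% in control PV neurons to 7.45% in UCMS SST neurons.

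The tests between neuron types in the UCMS mice asked whether these orders also held under stress. They are not independent of the choice of genes, which was made with results of these data known. They compared log2(normalized count + 4) with limma, mouse as a block, over 17638 genes, at a Benjamini-Hochberg adjusted p of 0.05. Pairs of types share libraries, so the results are not independent of each other. PYR neurons exceeded PV neurons in Nptxr by 2.23 ± 0.12 on the log2 scale (SE, limma adjusted p = 8.8e-29), in Nptx2 by 3.52 ± 0.71 (limma adjusted p = 4.4e-05) and in Nptx1 by 1.64 ± 0.20 (limma adjusted p = 9.4e-12). All 9 UCMS mice with both libraries had the higher value in PYR neurons for each gene. Of all genes tested, 11.3% passed in this pair.

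PYR neurons exceeded SST neurons in Nptxr by 1.58 ± 0.11 (limma adjusted p = 1.5e-20, 10 of 10 mice) and in Nptx1 by 1.36 ± 0.20 (limma adjusted p = 8.0e-09, 10 of 10 mice), where 6.26% of all genes passed. The Nptx2 difference of 1.73 ± 0.68 did not pass (limma adjusted p = 0.13, 95% interval 0.38 to 3.08, higher in 9 of 10 mice). Against VIP neurons the PYR excess was smaller, 0.71 ± 0.11 for Nptxr (limma adjusted p = 1.7e-06, 10 of 10 mice) and 0.66 ± 0.20 for Nptx1 (limma adjusted p = 0.025, 9 of 10 mice), with 5.32% of all genes passing. The Nptx1 call was lost without mouse U607, U609 or U610 (limma adjusted p = 0.060, 0.066 and 0.099) and without the filter on low counts (0.12). Nptx2 differed by 1.22 ± 0.68, which did not pass (limma adjusted p = 0.39, 95% interval -0.13 to 2.57).

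The interneuron types also differed among themselves. PV neurons were below VIP neurons in all 3 genes, with PV minus VIP differences of -1.53 ± 0.12 for Nptxr (limma adjusted p = 6.9e-19), -0.98 ± 0.20 for Nptx1 (limma adjusted p = 1.0e-04) and -2.30 ± 0.71 for Nptx2 (limma adjusted p = 0.018), where 11% of all genes passed. VIP libraries had more Nptxr and Nptx1 than the PV library of the same mouse in 9 of 9 UCMS mice, and more Nptx2 in 7 of 9. The Nptx2 call was lost without mouse U602, U606 or U607 (limma adjusted p = 0.063, 0.088 and 0.0997), with quantile normalization (0.086) and with edgeR (0.22). SST neurons were below VIP neurons in Nptxr by -0.87 ± 0.11 (limma adjusted p = 7.7e-09, 10 of 10 mice) and in Nptx1 by -0.70 ± 0.20 (limma adjusted p = 0.016, 8 of 10 mice), and 4.39% of all genes passed. The Nptx1 call was lost without mouse U604, U606 or U608 (limma adjusted p = 0.13, 0.11 and 0.056), without the filter on low counts (0.091) and with edgeR (0.20). The SST minus VIP difference of Nptx2, -0.51 ± 0.68, did not pass (limma adjusted p = 0.80), and it turned to 0.10 without mouse U605 and to 0.0096 with edgeR. Between PV and SST neurons, where 5.24% of all genes passed, Nptxr was lower in PV neurons by -0.66 ± 0.12 (limma adjusted p = 2.2e-05, 8 of 9 mice). Nptx1 did not pass there at -0.28 ± 0.20 (limma adjusted p = 0.59) and neither did Nptx2 at -1.79 ± 0.71 (limma adjusted p = 0.14), which passed at -2.56 without mouse U605 (limma adjusted p = 0.013).

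The order of Nptxr in UCMS mice was therefore PYR, VIP, SST and PV, with each pair of neighbours distinct by the test under each alternative tried. For Nptx1 the order was the same, and the last neighbours, SST and PV, were not distinct. Its PYR to VIP call held in 16 of 20 settings and its SST to VIP call in 15 of 20. For Nptx2 the pairs of PYR with PV and of VIP with PV passed, the latter in 15 of 20 settings, and the other 4 pairs did not. SST and VIP neurons had no fixed order, since SST neurons had the higher mean in UCMS mice and VIP neurons the higher limma estimate. Against the mean of the 3 interneuron types, PYR neurons were higher by 1.51 ± 0.09 for Nptxr, 1.22 ± 0.16 for Nptx1 and 2.16 ± 0.56 for Nptx2 (limma adjusted p = 2.3e-24, 2.1e-10 and 0.0037), and 8.18% of all genes passed. In control mice, as a description, the log2 difference between PYR and PV neurons was 2.26 for Nptxr, 2.42 for Nptx1 and 4.12 for Nptx2. The control PYR to VIP difference was 0.75 for Nptxr, 1.11 for Nptx1 and 1.82 for Nptx2.

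**Figure D2:**
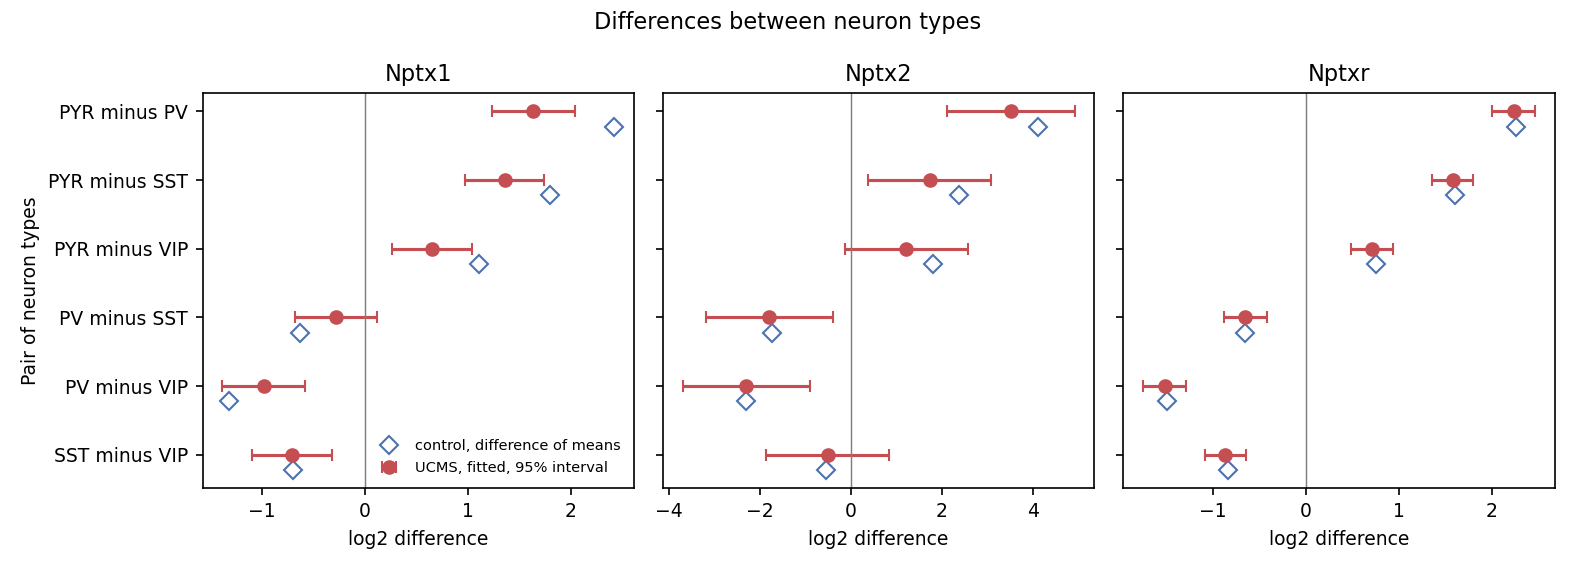
Difference between each pair of neuron types on the scale of log2(normalized count + 4) (horizontal axes, 1 scale per gene). Red points are the limma estimates in UCMS mice with 95% intervals, and open blue diamonds are differences of group means in control mice, which were not tested. For Nptxr the 2 arms lie close together in all 6 pairs, and for Nptx1 the PYR minus PV difference is 2.42 in control and 1.64 in UCMS mice.

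The summed markers of pyramidal neurons moved with these differences. The summed level of 10 pyramidal markers, of which the glutamate transporter gene Slc17a7 is the most abundant, ranged from 14560 to 19637 in UCMS PYR libraries, 6894 to 10016 in VIP, 4349 to 7388 in SST and 3312 to 7178 in PV libraries. Cux2, a transcription factor gene of upper cortical layers, went the other way, with means in the interneuron types at 110% to 161% of its PYR mean, and Rorb was level at 101% in control VIP neurons. The control ranges of the sum were 15747 to 21865 in PYR, 5781 to 10935 in VIP, 3712 to 8086 in SST and 3189 to 6514 in PV libraries. No pyramidal marker was at 0 throughout any group. The marker sum thus had the same order of types as Nptxr and Nptx1. Within a type, over 20 libraries (19 in PV neurons) and with arm means removed, none of 12 relations between a member and the marker sum on the log2 scale passed after Benjamini-Hochberg adjustment. Nptxr had a Pearson r of 0.56 in SST neurons (permutation p = 0.0098, adjusted p = 0.10), with a Spearman rho of 0.60 (permutation p = 0.0061, adjusted p = 0.055), and r was 0.66 without the 2 farthest libraries. In PYR neurons its r was 0.495 (permutation p = 0.025, adjusted p = 0.10), with a rho of 0.57 (permutation p = 0.0092, adjusted p = 0.055), and r was 0.43 without the 2 farthest. In VIP neurons its r was 0.48 (permutation p = 0.036, adjusted p = 0.11), with a rho of 0.50 (permutation p = 0.026, adjusted p = 0.10), and the relation rested on 2 libraries, without which r was 0.15. In PV neurons its r was 0.04 (permutation p = 0.87), with a rho of 0.14 (permutation p = 0.58). For Nptx1 r lay between 0.06 and 0.14 in the 4 types. Without the 2 farthest libraries its r was 0.07 in PYR, -0.20 in PV, 0.46 in SST and 0.09 in VIP neurons. Nptx2 in VIP neurons had an r of -0.50 (permutation p = 0.024, adjusted p = 0.10), which was -0.27 without the 2 farthest libraries. The summed markers of PV, SST and VIP neurons were each highest in the libraries of that type, and the sum of 8 genes of inhibitory neurons was 296 to 1185 in PYR libraries and 9388 to 29181 in interneuron libraries. In bulk libraries such as these, fewer cells with a transcript and less of it per cell cannot be told apart. Nor can transcript of the interneurons be told apart from that of pyramidal neurons caught in the same libraries, and the part of the latter was not tested.

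Expressed as a percentage of the PYR library of the same mouse, Nptxr in VIP neurons was 61.5% ± 16.1 in control (SD, n = 10) and 62.4% ± 13.1 in UCMS mice (n = 10). The summed pyramidal markers stood at 40.5% ± 6.79 and 45.7% ± 6.71 in the same libraries. The Nptxr percentage was above the marker percentage in 10 of 10 control and 8 of 10 UCMS mice. In PV neurons Nptxr was at 21.6% ± 5.80 in control and 22.2% ± 7.30 in UCMS mice (n = 9), beside marker sums of 26.2% ± 6.19 and 27.4% ± 6.29, and it was above them in 4 of 10 and 4 of 9 mice. In SST neurons Nptxr was at 33.7% ± 7.19 and 35.2% ± 11.8, beside marker sums of 30.6% ± 9.50 and 32.1% ± 7.63, and it was above them in 8 of 10 control and 5 of 10 UCMS mice. Without Cux2, an alternative chosen after seeing the data, the sum of the other 9 markers stood at 35.3% and 39.99% in VIP, 25.1% and 26.6% in SST and 21.6% and 22.4% in PV neurons of control and UCMS mice. Nptxr was then above the marker percentage in 10 of 10 control and 9 of 10 UCMS mice in VIP, 8 of 10 and 8 of 10 in SST and 5 of 10 and 5 of 9 in PV neurons. Slc17a7 alone stood at 34.2% and 38.7% in VIP, 23.8% and 24.4% in SST and 20.5% and 20.3% in PV neurons of control and UCMS mice.

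Nptx1 in VIP neurons was at 50.1% ± 20.4 of the PYR level in control (n = 10) and 65.8% ± 19.0 in UCMS mice (n = 10), and it was above the marker percentage in 7 of 10 mice of each arm. In PV neurons it was at 21.8% ± 13.9 in control and 33.5% ± 11.6 in UCMS mice. Nptx2 in PV neurons was at 6.98% ± 7.23 in control mice, below the marker percentage in 10 of 10, and at 15.2% ± 16.01 in UCMS mice, below it in 6 of 9. No other member was below the marker percentage in every mouse of a group.

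**Figure D3:**
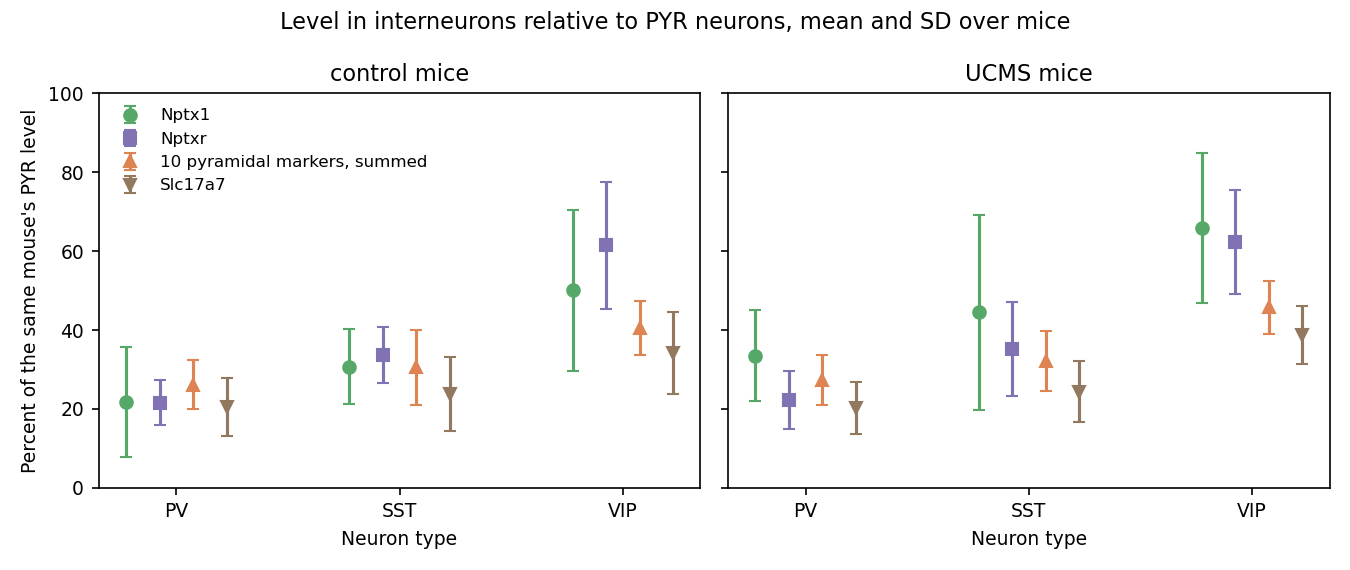
Level of Nptx1, Nptxr, the summed pyramidal markers and the marker Slc17a7 in interneuron libraries as a percentage of the PYR library of the same mouse (vertical axis, linear), mean and SD over mice (n = 10, and 9 for UCMS PV neurons). In VIP neurons Nptxr stands at 61.5% and 62.4%, above the marker sum at 40.5% and 45.7%.

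The stress comparison asked whether UCMS changed the 3 transcripts within a neuron type. None of the 3 passed in any type, and the 2 arms overlapped for each gene in each type. Few genes passed at all: 0.0808% of genes tested in PYR neurons, and 0% in PV, in SST and in VIP neurons (limma, Benjamini-Hochberg adjusted p of 0.05). At an unadjusted p under 0.05 limma listed 6.36% of genes in PYR, 3.74% in PV, 5.72% in SST and 5.15% in VIP neurons. On the recovered reads edgeR called 27 genes in PYR, 0 in PV, 1 in SST and 885 in VIP neurons, and DESeq2 called 39, 56, 54 and 108, with none of the 3 members among them.

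For Nptxr no difference passed, and the ratio of the UCMS to the control mean was 1.12 in PYR, 1.15 in PV, 1.14 in SST and 1.13 in VIP neurons. The log2 fold changes were 0.16 ± 0.07 in PYR (SE, limma unadjusted p = 0.026, adjusted p = 0.76), 0.19 ± 0.18 in PV (adjusted p = 0.98), 0.18 ± 0.13 in SST (adjusted p = 0.89) and 0.20 ± 0.11 in VIP neurons (adjusted p = 0.93). Of the UCMS libraries, 7 of 10 in PYR, 4 of 9 in PV, 6 of 10 in SST and 7 of 10 in VIP neurons lay above the control median. The median log2 fold change over all genes tested was also above 0, at 0.10 in PYR, 0.05 in PV, 0.15 in SST and 0.17 in VIP neurons. With edgeR, which differs in both scaling and model, those medians were 0.02, -0.0088, 0.02 and 0.04, and Nptxr stood at 0.18, 0.22, 0.25 and 0.20. Among the 1330 genes with a mean of at least 1000 (1329 in PV neurons), a level class that holds Nptxr and was picked after the values were seen, the median was -0.0074 in PYR, -0.011 in PV, 0.0095 in SST and 0.0059 in VIP neurons. Nptxr was above 0 in each type under each alternative tried. In the limma fits 58.8% of all genes tested were also above 0 in PYR, 53.0% in PV, 60.9% in SST and 60.2% in VIP neurons. Among the log2 fold changes of all genes Nptxr lay near the middle, at percentiles 54.6, 59.5, 51.7 and 52.1.

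Nptx1 had its highest ratio of UCMS to control mean in PV neurons, 1.41, with a log2 fold change of 0.62 ± 0.34 (95% interval -0.04 to 1.29, limma adjusted p = 0.98), and 4 of 9 UCMS libraries lay above the highest control library. In the same PV libraries 7 of 8 SST markers had the higher mean in UCMS mice, with a summed level of 265 to 2575 in control and 1400.1 to 2443 in UCMS mice. The same held for 4 of 7 VIP markers (47.9 to 1085 and 393 to 891), while Vip itself had a mean of 11.4 in control and 2.69 in UCMS mice and Tac2 was at 0 in UCMS mice. Of the microglial markers, 6 of 9 had the higher mean in UCMS mice in PV neurons (76.8 to 659 and 154 to 1023) and 6 of 9 in SST neurons (38.6 to 1446 and 154 to 955). In PV neurons the count was 1 of 7 for astrocyte, 2 of 7 for oligodendrocyte, 2 of 5 for endothelial and 5 of 10 for pyramidal markers. In SST neurons it was 6 of 7 for oligodendrocyte, 3 of 7 for astrocyte and 1 of 5 for endothelial markers. These counts compare group means, and counts by limma log2 fold change differed. By the latter, 8 of 8 SST, 3 of 4 VIP and 6 of 8 microglial markers tested were above 0 in PV neurons. So were 4 of 7 astrocyte, 4 of 7 oligodendrocyte, 1 of 4 endothelial and 6 of 10 pyramidal markers. In SST neurons 8 of 9 microglial, 6 of 7 astrocyte, 4 of 7 oligodendrocyte and 3 of 4 endothelial markers were above 0. By the same measure 53.0% of all genes tested were above 0 in PV and 60.9% in SST neurons. None of the markers tested passed, and their part in the Nptx1 values was not tested. The Nptx1 ratios were 1.33 in SST and 1.19 in VIP neurons, with log2 fold changes of 0.30 ± 0.26 and 0.31 ± 0.23 (adjusted p = 0.90 and 0.93). In PYR neurons the ratio was 0.88, with a log2 fold change of -0.15 ± 0.13 (adjusted p = 0.91). Nptx1 thus had lower means in UCMS mice in PYR neurons and higher means in the 3 interneuron types, none of which passed.

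Nptx2 did not pass in any type and its intervals were wide. The log2 fold change was 0.04 in PYR neurons (95% interval -0.63 to 0.71), 0.54 in PV neurons (-1.44 to 2.53), 0.68 in SST neurons (-0.95 to 2.32) and 0.64 in VIP neurons (-0.99 to 2.26). In VIP neurons the ratio of means was below 1, at 0.75, and it rested on the control library of mouse U10, without which it was 1.23. The log2 fold change there was above 0, and it turned to -0.33 with edgeR, -0.39 with DESeq2 and -0.11 with quantile normalization. In PYR neurons it turned to -0.0087 with edgeR and -0.023 with DESeq2. No direction is therefore given for Nptx2.

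**Figure D4:**
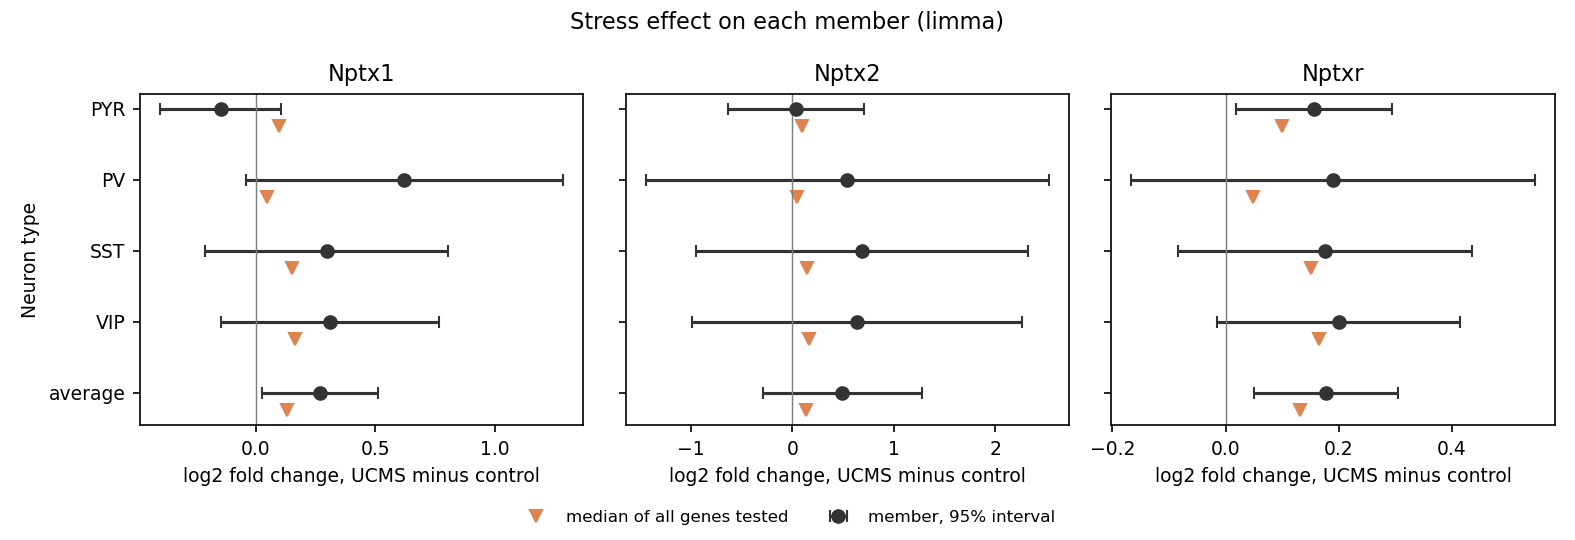
Difference between UCMS and control mice on the scale of log2(normalized count + 4) (horizontal axes, 1 scale per gene) in each neuron type and on average, as limma estimates with 95% intervals (black). Orange triangles mark the median over all genes tested. Nptxr lies between 0.16 and 0.20 in the 4 types, to the right of the orange median in each, at percentiles 51.7 to 59.5 of all genes tested.

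Averaged over the types within each mouse, the log2 fold change was 0.18 ± 0.06 for Nptxr (limma unadjusted p = 0.0065, adjusted p = 0.61), 0.27 ± 0.12 for Nptx1 (unadjusted p = 0.030, adjusted p = 0.72) and 0.49 ± 0.40 for Nptx2 (adjusted p = 0.85), beside a median over all genes of 0.13. None passed, and 0% of 17427 genes passed, with 6.83% at an unadjusted p under 0.05. Whether the stress effect differed between types was tested as an interaction in all 79 libraries with mouse as a block. None of the 3 passed (Nptx1 F = 1.84, unadjusted p = 0.14, Nptx2 p = 0.93, Nptxr p = 0.996, each with a limma adjusted p of 0.9997), and 0% of genes passed, with 4.68% at an unadjusted p under 0.05. edgeR and DESeq2 also called 0 genes in the interaction, and they were not run on the mouse means.

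The genes that work with neuronal pentraxins were counted from lists of 85 genes in 7 groups. For the 4 AMPA receptor subunits, the receptors that pentraxins gather, 2 were higher and 2 lower in PYR neurons against the mean of the interneuron types in UCMS mice. Gria2 (0.58) and Gria3 (0.65) were higher and Gria1 (-0.65) and Gria4 (-0.85) lower (log2 differences, limma adjusted p = 2.2e-10, 8.1e-05, 9.5e-15 and 1.2e-06). The list's median was -0.03, beside 0.04 over all 17638 genes tested, of which 797 were higher and 646 lower (8.18% in all). Gria4, a subunit known for fast receptors in PV interneurons, was 2967 ± 932 in control and 2788 ± 611 in UCMS PV neurons and 1011 ± 410 and 1015 ± 324 in PYR neurons. Nptxr and Nptx1 on one side and Gria4 on the other therefore had opposite orders between PYR and PV neurons, with a Gria4 difference of -1.46 in that pair (limma adjusted p = 1.4e-11).

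Of 12 auxiliary subunits of AMPA receptors, which set their trafficking and kinetics, 2 were higher and 4 lower in PYR neurons, with a median of 0.16 beside 0.04 and 8.18% called over all genes. Among the 4 most abundant, Cacng2, the gene of stargazin, was lower at -0.88 (limma adjusted p = 0.0026) and Cacng3 higher at 1.19 (limma adjusted p = 1.9e-04), while Shisa7 at 0.13 and Shisa9 at 0.21 did not pass. Of 25 secreted and adhesion organizers of synapses 21 were tested, of which 5 were higher and 2 lower, with a median of 0.06 beside the same values over all genes. Olfm1, which encodes a secreted glycoprotein that binds AMPA receptor complexes, was higher at 1.06 (limma adjusted p = 5.1e-25). Nrxn3, a presynaptic adhesion gene, was lower at -0.78 (limma adjusted p = 4.1e-13), and Nrxn2 did not pass at -0.15.

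Of 10 genes for pentraxin binding and processing 9 were tested, and C1qa, C1qb and C1qc of this list also served as microglial markers. None of the 9 was higher and 1 was lower, where 8.18% of all genes passed. The median was -0.24, beside 0.04 over all genes and -0.24 over the microglial markers. With 9 genes tested in each list, a median is the value of a single gene. The value of -0.24 is that of the same shared C1q gene in both lists. The lower one was Furin, a proprotein convertase, at -0.93 (limma adjusted p = 0.022). The Furin call was lost without mouse U603, U604, U607 or U610, with differences of -1.11 to -0.83 over all alternatives. Kcnd2 (0.08), Adam10 (0.54) and Rcn2 (-0.63) did not pass. The part of microglial transcripts in the median of this list was not tested. Of 8 genes of the perineuronal net, the matrix around PV interneurons with which Nptx2 associates, 2 were higher in PYR neurons, Ncan (0.48, limma adjusted p = 0.020) and Tnr (0.48, 0.0025), and 1 was lower, Bcan (-1.53, 2.5e-06), with a median of -0.06 beside the same values over all genes. The Ncan call was lost without mouse U604, U605 or U610, with differences of 0.42 to 0.55 over all alternatives. Hapln4, a link protein gene, did not pass against the interneuron mean (-0.37), and in the pair of PYR and PV neurons it was lower in PYR neurons at -2.14 (limma adjusted p = 6.0e-06).

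Of 20 genes induced by neuronal activity, the class to which Nptx2 belongs, 10 were higher in PYR neurons, 1 was lower and 9 did not pass, where 8.18% of all genes passed. The list's median log2 difference was 1.11, beside 0.04 over all genes tested. The number that was higher lay between 5 (edgeR) and 11 over the alternatives, and the median between 0.96 and 1.29. Homer1, whose short form is induced by activity, was higher at 0.75 (limma adjusted p = 0.0024) and Egr1, a transcription factor, at 1.22 (limma adjusted p = 5.8e-05). The neuropeptide precursor gene Scg2 was the lower one, at -1.06 (limma adjusted p = 1.0e-05), and Vgf did not pass at -0.55. Homer1 was 912 ± 374 in control and 1295 ± 313 in UCMS PYR neurons, and Egr1 was 917 ± 330 and 1026 ± 306.

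No gene of the 7 lists passed a stress comparison in any type, on average or in the interaction. On average over the types the median log2 fold change was 0.26 for the 20 activity-induced genes, of which 16 were above 0, 0.02 for the AMPA receptor subunits, 0.12 for the auxiliary subunits, 0.10 for the organizers, 0.11 for binding and processing and 0.16 for the perineuronal net. Over all genes tested it was 0.13, with 67.8% of genes above 0. The other pentraxins gave few reads. Crp, Apcs, Ptx3, Ptx4 and Mptx2 had means of at most 32.8 normalized counts in any group. Only Crp in SST neurons entered a stress test, where it did not pass (limma adjusted p = 0.88), with reads in 2 of 10 control libraries and none in the UCMS libraries. Mptx1 was not analysed here.

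The genes whose levels were most like those of the members over the 79 libraries were sought among 8233 protein-coding genes with a mean of at least 100. Enc1 had the highest Pearson r with Nptx1 (0.83) and with Nptxr (0.89) and was among the first 5 for Nptx2 (0.60). Nptxr itself was also among the first 5 for Nptx1 (0.82) and for Nptx2 (0.59). Nptx1 was followed by Baiap2 (0.78), Cobl (0.77) and the pyramidal marker Slc17a7 (0.77), and Nptxr by Kalrn (0.88), Nell2 (0.87), Baiap2 (0.86) and Slc17a7 (0.86). Tmem263 (0.62), Agap2 (0.60) and Kcnn3 (0.59) were the other genes for Nptx2. The points share neuron type and mouse, so these values include the difference between types. The r of Tmem263 with Nptx2 did not fall when the mean of each type and arm was subtracted (0.64).

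After the mean of each type and arm was subtracted, the Pearson r between members over the 79 libraries was lower. It was 0.28 between Nptx1 and Nptxr, at percentile 98.0 among all the genes compared with Nptx1, 0.11 between Nptx1 and Nptx2 (percentile 79.9) and 0.04 between Nptx2 and Nptxr, at percentile 56.2 among the genes compared with Nptx2. The highest values with other genes were 0.48 for Nptx1 with Josd1, 0.64 for Nptx2 with Tmem263 and 0.51 for Nptxr with Iqsec2. Next came Exosc10, Msh6, Neto1 and Elac2 for Nptx1 (0.45 to 0.47), Mtdh, Bmpr2, Tmub2 and Phf10 for Nptx2 (0.49 to 0.58) and Epha4, Bbs1, Fam107a and Ubald1 for Nptxr (0.45 to 0.47). No gene was among the first 5 of more than 1 member by this measure, and Tmem263 was first for Nptx2 by both.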

How the data were processed

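The members and gene lists were chosen with earlier results of these data known. The deposited table holds a signal per gene and library, normalized counts that the authors made by dividing reads by a size factor. HISAT2, SAMtools 1.3, DESeq2 and GRCm38 (mm10) are named per the submitters' processing notes, whereas the sources used here do not give the read counter, annotation or strand setting. Whole reads were recovered from the step of each column, with 100% of values whole within 0.001. Of 38879 identifiers 38636 matched GENCODE M21 and 243 did not.

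Genes with a mean of at least 10 over the libraries of a comparison were compared as log2(normalized count + 4) with limma 3.58.1 (trend, robust) in R 4.3.3, with Benjamini-Hochberg adjustment at 0.05. A fold change on this scale understates the change of low genes. edgeR 4.0.16 and DESeq2 1.42.0 on recovered reads were alternatives, besides pseudocounts of 1 and 16, filters, quantile normalization, totals of protein-coding reads, dropping the 7 shallowest libraries, and dropping each library or mouse in turn. The code was tested on simulated data. Libraries with 1 number are of 1 mouse, and their deviations from the group means correlated weakly (median r = 0.0088 over 117 pairs, against -0.0015 over 1053 pairs of different mice). Averages over types used 1 mean per mouse, and mouse U609 had 3 types. Named list genes are those past a stress threshold or otherwise the up to 4 most abundant of each list (1 of them is not reported here), and likeness is the 5 highest Pearson r among protein-coding genes with a mean of at least 100.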

Additional observations from a re-analysis of the deposited data

Results flagged for a closer look

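In 3 of the 24 groups of libraries (3 genes, 4 types, 2 arms) the highest or the lowest library stood far from its neighbours by Dixon's test at the 95% level. Chance does so in about 1 in 20 groups of normally distributed values. All 3 groups concerned Nptx2. Its VIP groups had coefficients of variation of 133% in control and 78.4% in UCMS mice, so that rate need not hold for them. The UCMS PYR group had 29.0%. The control VIP library of mouse U10 held 983 normalized counts of Nptx2 against 375 in the next highest. It had 4568943 reads, the third lowest total of all libraries, and the group mean without it was 135 ± 123 (SD, n = 9). The PYR library of the same mouse had the lowest Nptx2 of the control PYR group, 81.1, and its VIP library the lowest Nptxr of the control VIP group, 2743.

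The UCMS VIP library of mouse U607 held 479 normalized counts of Nptx2 against 258 in the next highest, and the group mean without it was 131 ± 73.4 (n = 9). The UCMS PYR library of mouse U603 held 98.2 against 272 in the next lowest, and the group mean without it was 345 ± 53.2 (n = 9). Both libraries lay within the middle range of depth, with 9767280 and 11468186 reads. The part of depth in these values was not tested.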

How the results depend on the processing

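None of the 3 members passed a stress comparison in any type, on average or in the interaction under any alternative, and Nptxr and Nptx1 kept the sign of their stress effect in each. The fit of all groups with mouse as a replicate block also called 0 members for stress in each type, and leaving the replicate block out of the comparisons of types and of the interaction changed no call of a member. The sign of the Nptx2 stress effect turned in VIP neurons with quantile normalization (-0.11), edgeR (-0.33) and DESeq2 (-0.39), and in PYR neurons with edgeR (-0.0087) and DESeq2 (-0.023). Leaving out 1 library at a time it ranged from -0.16 to 0.21 in PYR neurons, below 0 without control mouse U1 or U10 or UCMS mouse U602 or U609. In VIP neurons its ratio of means turned from 0.75 to 1.23 without control mouse U10, an alternative chosen after seeing the data. The SST minus VIP difference of Nptx2 was 0.0096 with edgeR and ranged from -0.80 to 0.10 when 1 mouse was left out. Without the filter on low counts 1 member instead of 2 passed between PYR and VIP and 1 instead of 2 between SST and VIP neurons, and with edgeR 1 passed between SST and VIP neurons. Leaving out 1 mouse at a time, 1 to 2 members passed between PYR and VIP, 1 to 2 between SST and VIP and 1 to 2 between PV and SST neurons. The log2 difference of Nptx2 between PYR and PV neurons ranged from 2.78 to 4.03 over all alternatives. The cause of these changes was not tested.

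Counts over all genes moved more. For stress in PYR neurons limma called 13 genes, 7 with a pseudocount of 1, 0 without the filter, 0 at a mean of at least 50, 0 with the replicate block, 27 with edgeR and 39 with DESeq2, and from 2 to 14 without 1 library. Averaged over types limma called 4 genes without mouse U1 and 1 without U602, and in PV neurons 1 without U601. For types DESeq2 called 3325 genes between PYR and PV, 2061 between PYR and SST, 1775 between PYR and VIP, 2104 between PV and SST, 3384 between PV and VIP, 1624 between SST and VIP and 2538 between PYR and the interneuron mean, where limma called 1991, 1105, 938, 925, 1937, 775 and 1443. edgeR called 510 between SST and VIP neurons. Nptx2 had 3 or fewer reads in 4 of 10 control and 2 of 9 UCMS PV libraries, so counting error is large there. These libraries held 8217739 to 11815938 reads, and the shallowest PV library had 5241174 and 14 reads of Nptx2. The part of depth in these low counts was not tested.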
